A study of Rattus norvegicus with 6 samples.

Results

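Oxidative phosphorylation genes were compared between rat soft tissue that had healed around a titanium alloy implant and oral mucosa that had healed over an empty extraction socket. The genes were chosen by name: every probe set, the group of short probes that measures a transcript on the array, entered when its single gene symbol began with Nduf, Uqcr, Cox4 to Cox8 or Atp5, or was Sdha, Sdhb, Sdhc or Sdhd. This rule found 96 probe sets for 86 genes, out of 14217 genes with a probe set of their own, and each gene was represented by its probe set with the highest mean over the 6 arrays. All 86 are encoded in the nucleus. They comprised 34 genes of complex I, 4 of complex II, 7 of complex III, 16 of complex IV, 16 of complex V, 6 complex I assembly factors, the pair Ndufa4 and Ndufa4l2, and the pseudogene Cox6c-ps1.

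Samples came from male Sprague-Dawley rats that lost the upper first molars of both sides at 4 weeks of age. Implants went into the left socket only. Tissue was collected 4 weeks later: 3 samples of peri-implant soft tissue from the implanted left side, and 3 of oral mucosal tissue from the right side, where the tooth was extracted and no implant was placed. Tissue and side of the mouth therefore always went together, both groups had been through extraction, and unoperated mucosa was not analysed here. Whether each sample was a different rat is not stated in the labels, so the p-values reflect the variation among these 3 and 3 samples only, and part of it may be technical.

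The respiratory chain sits in the inner mitochondrial membrane. Complex I takes electrons from NADH and complex II, which is also the succinate dehydrogenase of the citric acid cycle, takes them from succinate; complex III passes them to cytochrome c and complex IV passes them to oxygen. The protons pumped by complexes I, III and IV drive ATP synthesis by complex V. Most subunits are made in nearly every cell type, whereas a few complex IV genes exist as isoforms restricted to muscle, lung or testis.

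Signals were log2 values that had been scaled array by array before deposition, with medians between 6.62 and 6.78, and between 58.3% and 62.4% of the probe sets on each array stood above 5.90, the level used here to describe a signal as dim. Over the 18625 probe sets bright enough to be tested, arrays correlated at 0.965 to 0.981 within groups and at 0.931 to 0.945 between groups. Probe sets are not independent replicates. One measure of RNA integrity separated the groups: the beta-actin 3′ probe set stood 3.94 to 4.01 above the 5′ probe set in peri-implant samples and 2.95 to 3.48 in mucosa, while the same gap for GAPDH was 0.15 to 0.24 and 0.14 to 0.21. The part of this separation in the differences below was not tested.

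Most oxidative phosphorylation genes had similar signals in the 2 tissues. Of the 80 members bright enough to be tested, 10 were higher in peri-implant tissue, 3 were lower and 67 did not pass the threshold, an adjusted p of 0.05 in the limma fit over all probe sets. The 13 called members made up 16.2%, where 26.1% of all 10585 genes tested were called (15.2% higher and 11.0% lower). Members whose 3 peri-implant and 3 mucosal values did not overlap numbered 32 of 80, or 40%, against 41.9% of all genes. Of the 32, 23 stood higher in peri-implant tissue, a split that was not counted over all genes. Differences of any size were positive for 62.5% of the tested members and 54.5% of all genes. The median difference, peri-implant minus mucosa, was 0.064 over the tested members and 0.035 over all genes. The share of members called depended on the scaling between arrays. After quantile normalization 29 of the 80 were called, 36.2%, against 27.0% of all genes. Under every one of the other 16 alternatives the members' share was below that of all genes.

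The differences that were present were small. The median size of a difference, in either direction, was 0.13 log2 units for tested members and 0.24 for all genes, with median standard errors (SE) of 0.078 and 0.13. For 68 of the 80 members, 85.0%, the whole 95% confidence interval lay within 0.5 log2 units of 0, a 1.41-fold change, and the same held for 41.6% of all genes. The subunits were bright: group averages of complexes I to V ran from 11.45 to 13.35, against array medians of 6.62 to 6.78. The part of signal level in the smaller SE and narrower intervals was not tested. Only Ndufa4l2 differed by 2-fold or more, 1.25% of the tested members, against 8.6% of all genes. The 71 tested subunits of complexes I to V ran from -0.39 to 0.40.

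**Figure D1:**
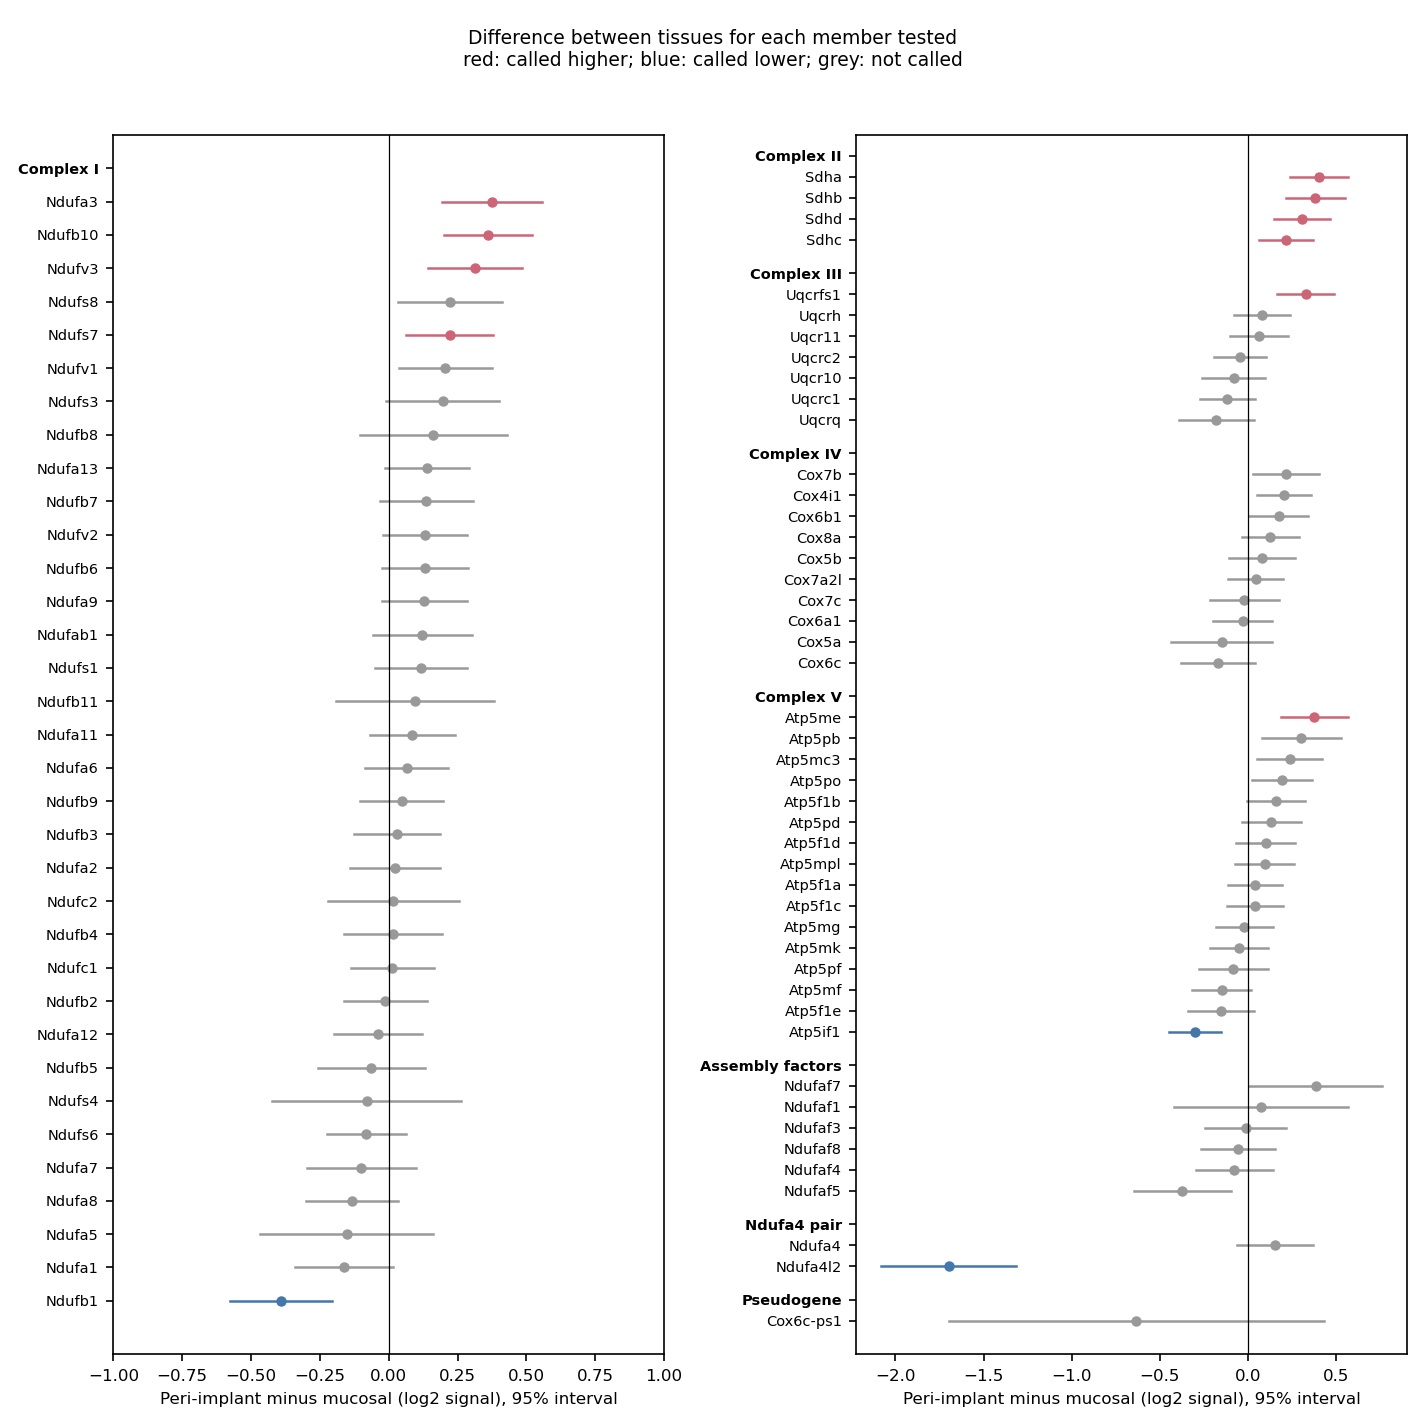
Difference in log2 signal between peri-implant soft tissue and oral mucosa for each tested member, grouped by complex, with 95% confidence intervals of the limma fit (red, called higher; blue, called lower; grey, not called). Complex II stands to the right of 0 as a whole, most other subunits have intervals that cover 0, and Ndufa4l2 lies far to the left at -1.70; the horizontal scales of the panels differ.

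All 4 subunits of complex II, succinate dehydrogenase, were called higher in peri-implant tissue, where 15.2% of all genes were. The increase was 0.40 (SE 0.075) for Sdha, the catalytic flavoprotein, and 0.38 (SE 0.077) for Sdhb, the iron-sulphur subunit that passes electrons on. The membrane anchors that hold the ubiquinone and haem sites rose by 0.31 (SE 0.074) for Sdhd and 0.22 (SE 0.070) for Sdhc. No other complex had all of its tested subunits called, but each of the others had more of them tested, from 7 to 34. The stretches of 250 bases just before the annotated start of each gene are given here because these 4 genes moved in the same direction; they come from RefSeq, build GRCr8, and are written 5′ to 3′ on the strand of the gene.

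Capitals mark matches to any of 3 short motifs searched on both strands: ACGTG or GCGTG, the core of hypoxia response elements; TGCGCA, the core of the site of NRF-1, a regulator of many respiratory genes; and CCGGAAG, an ETS site of the kind bound by GABP. Sdha lies at chr1:30764303-30764552 on the plus strand, Sdhb at chr5:158547684-158547933 on the plus strand, Sdhc at chr13:86098026-86098275 on the minus strand and Sdhd at chr8:59850642-59850891 on the minus strand.
Sdha: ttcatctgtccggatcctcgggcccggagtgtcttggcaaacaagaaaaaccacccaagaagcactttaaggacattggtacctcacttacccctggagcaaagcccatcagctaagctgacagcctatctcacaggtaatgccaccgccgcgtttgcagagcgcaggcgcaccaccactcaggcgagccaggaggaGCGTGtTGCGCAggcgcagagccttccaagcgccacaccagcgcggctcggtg
Sdhb: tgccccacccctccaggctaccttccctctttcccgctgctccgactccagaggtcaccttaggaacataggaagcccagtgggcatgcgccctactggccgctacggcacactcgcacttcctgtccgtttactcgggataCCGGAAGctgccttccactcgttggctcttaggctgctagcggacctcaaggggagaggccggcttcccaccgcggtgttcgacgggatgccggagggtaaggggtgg
Sdhc: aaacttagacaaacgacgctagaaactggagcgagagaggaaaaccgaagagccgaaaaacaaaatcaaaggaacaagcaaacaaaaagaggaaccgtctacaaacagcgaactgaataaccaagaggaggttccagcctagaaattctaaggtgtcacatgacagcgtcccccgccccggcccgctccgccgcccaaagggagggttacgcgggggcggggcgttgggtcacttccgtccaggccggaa
Sdhd: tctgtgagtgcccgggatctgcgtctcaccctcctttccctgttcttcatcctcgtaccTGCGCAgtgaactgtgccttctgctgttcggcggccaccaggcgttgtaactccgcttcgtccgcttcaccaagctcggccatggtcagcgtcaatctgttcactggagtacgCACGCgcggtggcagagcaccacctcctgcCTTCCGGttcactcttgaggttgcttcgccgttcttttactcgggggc

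The Sdha window held GCGTG and TGCGCA once each, the Sdhb window CCGGAAG once, the Sdhd window each of the 3 motifs once (GCGTG and CCGGAAG on the opposite strand) and the Sdhc window none. Across the 78 members with a promoter in the table, TGCGCA was present in 18, or 23.1%, and CCGGAAG in 21, or 26.9%, where 6.14% and 7.27% of all 33469 promoters of the same length held them. ACGTG or GCGTG was present in 42 of the 78, 53.8%, and in 36.7% of all promoters. Matches of different motifs may share bases, and a match describes letters and not a bound site.

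Sdha read 11.58, 11.58 and 11.73 in peri-implant samples 1 to 3 and 11.17, 11.22 and 11.29 in mucosal samples 1 to 3, a 1.32-fold difference (adjusted p = 0.00159, limma). Sdhb read 10.99, 11.14 and 11.01 against 10.62, 10.69 and 10.68 (adjusted p = 0.00271). Every peri-implant value of both catalytic subunits lay above every mucosal value, and both genes remained called under all 17 alternatives, from 0.36 to 0.44 for Sdha and from 0.33 to 0.41 for Sdhb. The anchors were less secure. Sdhd read 11.81, 11.89 and 11.86 against 11.66, 11.50 and 11.48 (adjusted p = 0.00874), again without overlap, but a dimmer second probe set of Sdhd differed by 0.16 (adjusted p = 0.253), and the call was lost after median centring (adjusted p = 0.0797). Sdhc read 12.52, 12.60 and 12.60 against 12.38, 12.29 and 12.39 (adjusted p = 0.0410), close to the threshold. Its groups did not overlap either, yet its call was lost when any array but mucosal sample 3 was left out (adjusted p up to 0.152). The difference was then between 0.18 and 0.24. The Sdhc call was also lost with no filter, with the replicate block, without the variance trend and after median centring (limma adjusted p up to 0.252).

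Averaged over its 4 subunits, complex II stood at 11.78 ± 0.044 in peri-implant tissue and 11.45 ± 0.018 in mucosa (SD, n = 3). This difference of 0.33 separated all 6 arrays. The corresponding differences were 0.063 for complex I, 0.0066 for complex III, 0.047 for complex IV and 0.058 for complex V, and for each of these the arrays of the groups overlapped. In bulk tissue a different mixture of cells and a different amount of RNA per cell cannot be told apart, here or in the results that follow.

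**Figure D2:**
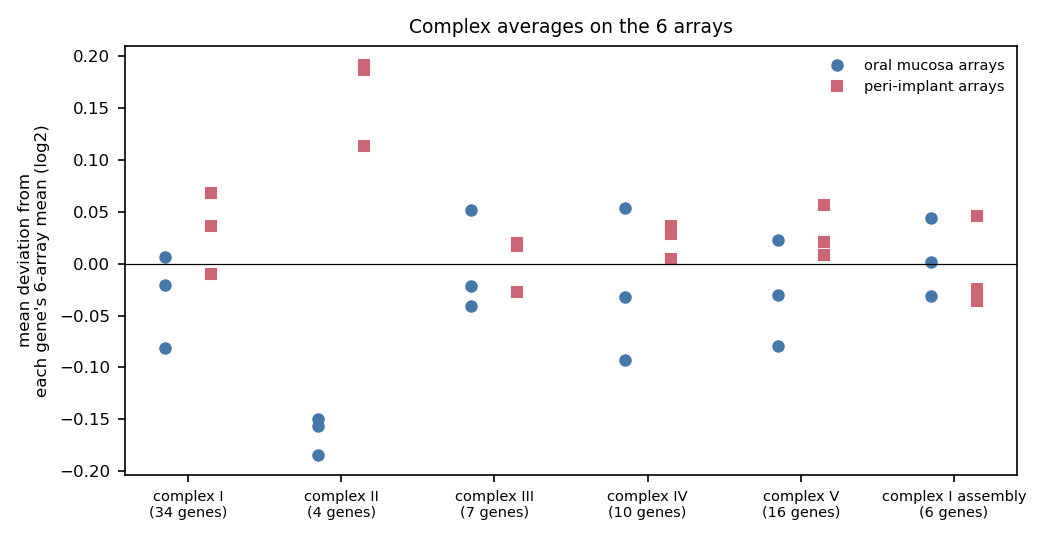
Mean deviation of each complex on each of the 6 arrays, in log2 units, taken over its tested members from each gene's own mean; points are single arrays. Complex II runs from 0.11 to 0.19 in the 3 peri-implant samples and from -0.18 to -0.15 in the 3 mucosal samples, whereas the groups overlap in the other complexes and in the assembly factors.

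Ndufa4l2 showed the largest difference of any tested member, and it was lower in peri-implant tissue. It is a paralogue of Ndufa4 known as a target of the hypoxia-inducible factor HIF-1, and its protein is known to restrain complex I activity when oxygen is scarce. Its signals were 9.63, 9.23 and 8.84 in peri-implant samples and 11.23, 10.88 and 10.68 in mucosa. The groups were more than 1 log2 unit apart at their closest, and the mean fell by 1.70 (SE 0.18, 95% confidence interval -2.08 to -1.32), a 3.25-fold difference with an adjusted p of 1.25e-05 in the limma fit. The call held under all 17 alternatives, with differences from -1.90 to -1.50.

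Because HIF-1 is the known regulator of this gene, its window is shown as well, from chr7:65241919-65242168 on the plus strand (RefSeq, GRCr8). It held none of the 3 motifs and so has no capitals, which says only that these letters are absent from these 250 bases.
Ndufa4l2: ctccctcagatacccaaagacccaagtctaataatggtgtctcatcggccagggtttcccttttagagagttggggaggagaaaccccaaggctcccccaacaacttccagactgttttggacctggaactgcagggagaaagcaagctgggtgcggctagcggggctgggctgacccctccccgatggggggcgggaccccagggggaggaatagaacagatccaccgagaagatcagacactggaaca

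Ndufa4 itself, first assigned to complex I and later found with complex IV, did not pass the threshold. It measured 14.29 ± 0.18 in peri-implant tissue and 14.13 ± 0.079 in mucosa (SD, n = 3), a difference of 0.16 with a 95% confidence interval of -0.060 to 0.37 (adjusted p = 0.307, limma). After quantile normalization the difference was 0.28 and passed the threshold. The difference between the paralogues was not tested.

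**Figure D3:**
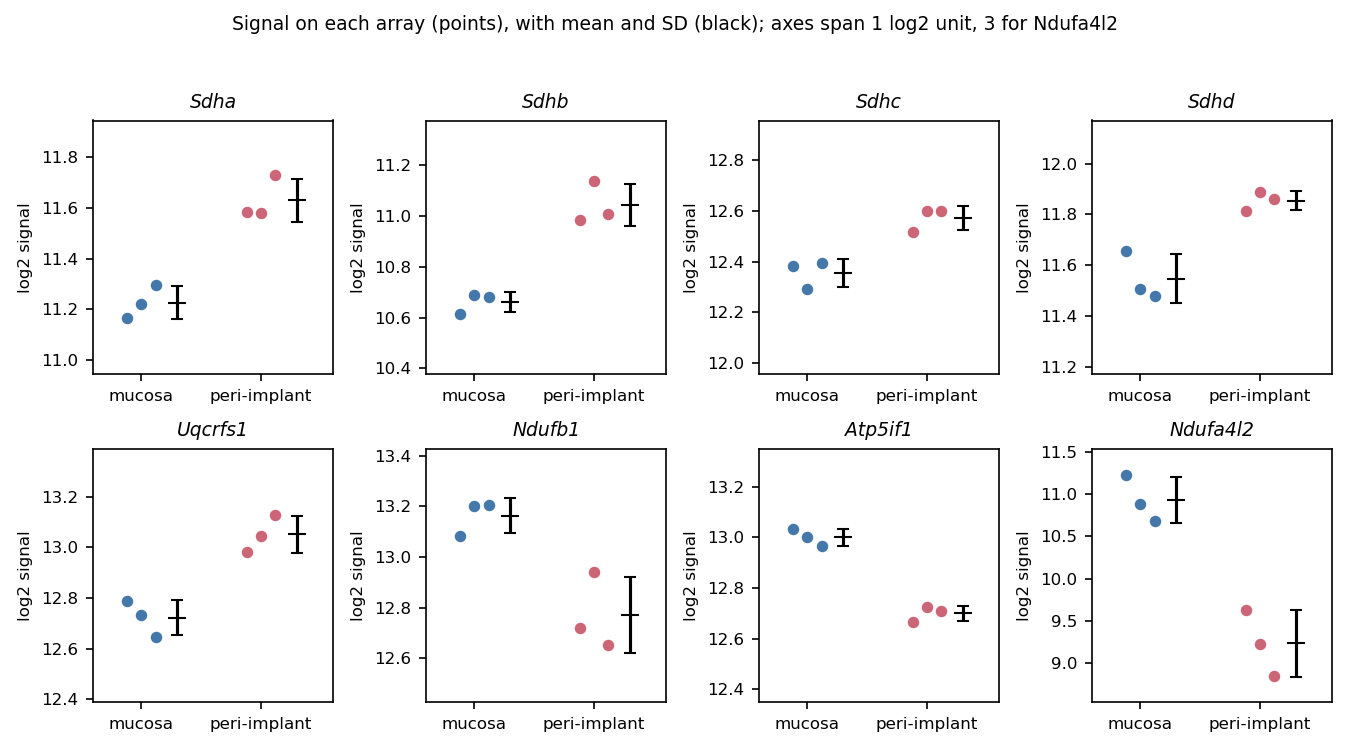
Log2 signal of 8 called members in each of the 3 mucosal (blue) and 3 peri-implant samples (red), with black bars for the mean and SD; the vertical axes start at different levels and span 1 log2 unit, or 3 for Ndufa4l2. The complex II genes and Uqcrfs1 lie higher in peri-implant tissue, Ndufb1, Atp5if1 and Ndufa4l2 lie lower, and in none of the 8 do the groups overlap.

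Complex I, the largest complex, was close to level. Of 34 subunits tested, 4 were higher, 1 was lower and 29 were not called, with a median difference of 0.076; the 14.7% called stood beside 26.1% of all genes. Its 6 core subunits encoded in the nucleus, which carry the flavin and iron-sulphur clusters, all had positive differences, from 0.12 for Ndufs1 to 0.22 for Ndufs7 and Ndufs8, with a median of 0.20. Of these only Ndufs7, the iron-sulphur subunit next to the ubiquinone site, was called. It read 11.74, 11.69 and 11.63 in peri-implant tissue and 11.49, 11.38 and 11.53 in mucosa (adjusted p = 0.0451, limma). The groups did not overlap, but the call was lost when any array but mucosal sample 3 was left out (adjusted p up to 0.147). It was also lost with no filter, with the replicate block, without the variance trend and after median centring (limma adjusted p up to 0.230). Ndufs1, the largest core subunit (adjusted p = 0.314), and Ndufv1, which binds NADH (0.21, adjusted p = 0.0785), were not called; Ndufv1 passed the threshold after quantile normalization (0.23, adjusted p = 0.0332).

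The 28 accessory subunits of complex I, which surround the core and stabilise it, had a median difference of 0.027, with 3 called higher and 1 lower. Ndufa3 read 12.56, 12.46 and 12.28 in peri-implant tissue and 12.15, 11.99 and 12.03 in mucosa, a rise of 0.38 (SE 0.084; adjusted p = 0.00569, limma). Ndufb10 read 12.33 in all 3 peri-implant samples and 11.95, 11.88 and 12.08 in mucosa, a rise of 0.36 (SE 0.074; adjusted p = 0.00309). Ndufb1 went the other way: it read 12.72, 12.94 and 12.65 in peri-implant tissue and 13.08, 13.20 and 13.20 in mucosa, and fell by 0.39 (SE 0.086; adjusted p = 0.00499). None of these 3 genes overlapped between the tissues. Subunits of the same membrane arm, Ndufb1 and Ndufb10 among them, did not move together.

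In 2 accessory subunits the probe sets disagreed. Ndufv3, a small subunit near the NADH site, read 11.26, 11.18 and 11.30 in peri-implant tissue and 10.90, 10.85 and 11.04 in mucosa on its brighter probe set, without overlap. That probe set rose by 0.31 (SE 0.078; adjusted p = 0.0110, limma), but its dimmer one differed by -0.13 (adjusted p = 0.582). For Ndufa7 the brighter probe set gave -0.10 (adjusted p = 0.487), and the dimmer one was higher in peri-implant tissue by 0.65 (adjusted p = 0.0386), at 8.50 ± 0.18 against 7.85 ± 0.40 (SD, n = 3). The sequences the probes target were not used here, so the direction for these genes is that of the probe set named.

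Complex III had a single subunit called of the 7 tested, 14.3% against 26.1% of all genes. Uqcrfs1, the Rieske iron-sulphur protein that hands electrons towards cytochrome c, read 12.98, 13.04 and 13.13 in peri-implant tissue and 12.79, 12.73 and 12.65 in mucosa. The groups did not overlap, and the mean rose by 0.33 (SE 0.075; adjusted p = 0.00614, limma), although median centring took the call away (adjusted p = 0.0590). The median of the complex was -0.046, and Uqcrc1, a core protein of the matrix side, differed by -0.12 (adjusted p = 0.288). Cyc1, the cytochrome c1 of complex III, has a name outside the rule; it was higher by 0.39 (SE 0.085; adjusted p = 0.00468), at 12.35 ± 0.14 against 11.96 ± 0.093 (SD, n = 3). Both redox-active subunits of complex III made in the nucleus were therefore called higher. Cyc1 was the only gene called of the 6 measured on the list of electron carriers to which it belongs, whose median difference was 0.14.

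None of the 10 tested complex IV genes was called by limma, where 26.1% of all genes were. An unadjusted limma p under 0.05 was found for 3 of the 10, and for 4002 of all 10585 genes tested. Groups did not overlap for 4 of the 10, or 40%, against 41.9% of all genes. Cox4i1, the ubiquitous form of the subunit that binds ATP and sets the activity of cytochrome c oxidase, differed by 0.21 (SE 0.072; adjusted p = 0.0578) and Cox7b by 0.21 (adjusted p = 0.0991). Cox5a, Cox5b, Cox6a1, Cox6b1 and Cox8a differed by -0.15, 0.078, -0.030, 0.17 and 0.13. Cox7a2l, a factor of respiratory supercomplexes, differed by 0.043 (adjusted p = 0.726). The 95% confidence intervals of all 10 lay within 0.5 log2 units of 0. After quantile normalization 5 of the 10 were called, all higher, and Cox4i1 was also called with the filter set at the 60th percentile.

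The restricted isoforms of complex IV were dim. All 6 members that failed the filter on low signals belonged to this set: Cox4i2, Cox6a2, Cox6b2, Cox7a1, Cox7b2 and Cox8b. Cox6a2, Cox7b2 and Cox8b, forms known from striated muscle (Cox6a2 and Cox8b) and testis (Cox7b2), were below 5.90 on all 6 arrays. Cox4i2, the form known from lung and from oxygen-sensing cells, read 5.89, 5.92 and 5.89 in peri-implant tissue and 3.19, 5.86 and 3.65 in mucosa; with values below 5.90 raised to it, the difference was 0.0076. Cox7a1, the heart and muscle form, read 5.67, 3.70 and 5.64 against 6.62, 6.51 and 4.77, so the groups overlapped. Cox6b2, known from testis, read 6.40, 5.79 and 6.08 against 5.48, 5.08 and 4.24, without overlap but around the dim level. Tested without the filter, none of the 6 was called, with adjusted p from 0.229 to 0.941 in limma.

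Complex V, the ATP synthase, had 1 gene higher and 1 lower among 16 tested, with a median of 0.068; the 12.5% called stood beside 26.1% of all genes. After quantile normalization 7 of the 16 were higher. In the catalytic F1 head, Atp5f1a and Atp5f1b, the alpha and beta subunits, differed by 0.041 (adjusted p = 0.735) and 0.16 (adjusted p = 0.166), and none of the 5 subunits was called by limma or had an unadjusted p under 0.05. The groups did not overlap for Atp5f1b, which was called after quantile normalization (0.25, adjusted p = 0.00168). In the membrane part, Atp5me, a small subunit involved in dimers of the enzyme, read 12.15, 12.42 and 12.49 in peri-implant tissue and 11.98, 11.96 and 11.99 in mucosa. It rose by 0.38 (SE 0.088, adjusted p = 0.00725) without overlap, the only gene called among the 6 of that part. A second, dimmer probe set of Atp5me averaged 5.06 in peri-implant tissue and 5.93 in mucosa, with overlap, and was not tested because of its low signal. None of the 4 peripheral stalk genes was called, and Atp5pb stood at 0.30 (adjusted p = 0.0519). An unadjusted limma p under 0.05 was found for 2 of the 4, and for 4002 of all 10585 genes tested.

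Atp5if1, the inhibitor that keeps ATP synthase from running backwards when respiration fails, was lower in peri-implant tissue. Its signals were 12.67, 12.72 and 12.71 against 13.03, 13.00 and 12.97 in mucosa. The groups did not overlap, and the mean fell by 0.30 (SE 0.068; adjusted p = 0.00622, limma). A second, dimmer probe set of the gene differed by 0.063 (SE 0.28; adjusted p = 0.902), with an interval too wide to place it, and another was not tested because of its low signal.

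No complex I assembly factor of the Nduf family passed the threshold, and their median difference was -0.034 over 6 genes. An unadjusted limma p under 0.05 was found for 2 of the 6, and for 4002 of all 10585 genes tested. The lowest of the 6 was Ndufaf5 at -0.37 (SE 0.13, adjusted p = 0.0520, limma) and the highest Ndufaf7 at 0.38 (SE 0.17, adjusted p = 0.141). Of 45 tested assembly factors with other names, 4 were higher and 1 was lower, 11.1% against 26.1% of all genes. The call with the smallest p was Coa5, needed to build cytochrome c oxidase, which rose by 0.69 (SE 0.084; adjusted p = 5.32e-05). Sdhaf1, which helps fit the iron-sulphur clusters into Sdhb, rose by 0.44 (SE 0.091; adjusted p = 0.00354), while Sdhaf2, which attaches flavin to Sdha, differed by 0.026 (adjusted p = 0.886). Surf1, another factor for complex IV, rose by 0.36, and Uqcc2, a factor for complex III, fell by 0.31. The pseudogene Cox6c-ps1 differed by -0.63 with an SE of 0.49 and was not called.

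Other mitochondrial pathways were read on the same arrays from lists of named genes. For the citric acid cycle, the pathway that shares complex II, 5 of 15 genes were higher and none lower, with a median of 0.19; they included Idh3b (0.33), Dlst (0.27), Mdh2 (0.23) and Suclg2 (0.29). For fatty acid oxidation 6 of 15 were higher and none lower, with a median of 0.23, led by Acadm, the medium-chain acyl-CoA dehydrogenase, at 1.79 (SE 0.095; adjusted p = 2.56e-08, limma) and Hadha, of the trifunctional protein, at 0.66. General mitochondrial components, such as import proteins, membrane channels and cristae factors, had 3 of 19 higher and none lower, with a median of 0.062. Those 3 were Chchd3 (0.38), Vdac2 (0.43) and Hspa9 (0.25). The shares called, 33.3%, 40% and 15.8%, stood beside 26.1% for all genes.

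Regulators of mitochondrial biogenesis gave 1 gene higher and 1 lower of 16 tested, 12.5% against 26.1% of all genes. Gabpb1, a subunit of GABP, rose by 0.48 (SE 0.12; adjusted p = 0.0130, limma) and Pprc1, a coactivator of the PGC-1 family, fell by 0.37 (SE 0.094; adjusted p = 0.0112). Gabpa, another subunit of GABP, and Nrf1, which encodes NRF-1, were not called, at -0.22 (adjusted p = 0.461) and 0.30 (adjusted p = 0.301). Ssbp1 and Tfam, which bind mitochondrial DNA, differed by 0.23 (adjusted p = 0.0696) and 0.23 (adjusted p = 0.137). Ppargc1a, which encodes PGC-1 alpha, a coactivator that drives mitochondrial biogenesis, failed the filter and was not tested. It read 3.04, 4.59 and 3.01 in peri-implant tissue, dim on every array, and 6.27, 6.57 and 6.38 in mucosa. The groups did not overlap, and with values below 5.90 raised to that level the difference was -0.51. Mitochondrially encoded subunits were not analysed here: none of 13 gene names matched a probe set.

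**Figure D4:**
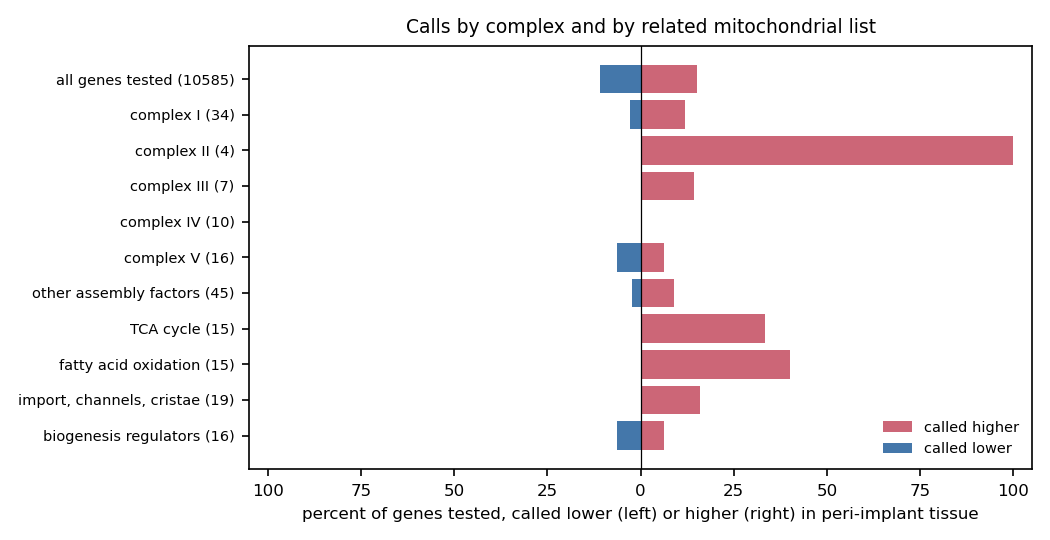
Share of tested genes called higher or lower at an adjusted p under 0.05 for each complex and related mitochondrial list, in percent of the genes tested (their number in brackets), with all genes tested at the top; lower calls run to the left and higher calls to the right. Complex II, with 4 genes, is called in full and complex IV not at all. Complexes II and III, fatty acid oxidation, the citric acid (TCA) cycle and the import, channels and cristae list are called only in the higher direction.

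The tissues also differed in markers of cell types. Of 15 tested myeloid markers 14 were higher in peri-implant tissue, where 15.2% of all genes were, and their summed linear signal was 43949 to 45434 there and 14184 to 14595 in mucosa. Neutrophil (4 of 6), lymphocyte (5 of 6) and erythrocyte markers (3 of 4) were likewise called in the higher direction only. The same 15.2% of all genes stood beside these shares. The 2 neutrophil markers not called, Mmp9 and Cxcr2, differed by -0.088 (adjusted p = 0.640, limma) and -0.10 (adjusted p = 0.762). Among the called markers, Lcn2, Jchain and Cd3e were dim on all 3 mucosal arrays. They passed the filter through the group in which they are high, and their calls say little. Among 14 fibroblast markers 3 were higher and 8 lower, with sums of 45186 to 47131 and 73198 to 79977. Mfap5, counted among the 3, read 8.44, 8.51 and 8.53 in peri-implant tissue and 3.06, 6.10 and 5.14 in mucosa. Its mucosal mean of 4.77 lay below the filter level of 5.68, so it too passed the filter through the group in which it is high. Keratinocyte markers were divided, with 5 higher and 5 lower of 15, and their sums overlapped. Endothelial markers had 1 of 8 higher, adipocyte markers 1 of 4, and of 2 tested salivary gland genes 1 was higher and 1 lower. The part of these markers in the complex II and Ndufa4l2 differences was not tested.

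Skeletal muscle, a tissue rich in mitochondria, was read from 26 markers, of which 12 were dim on all 6 arrays and 6 were bright enough to test. Their summed signal was 4208 to 4675 in peri-implant tissue and 4456 to 4836 in mucosa, with overlap. The largest part of the sum came from Myh1, which read 11.67 to 11.87 over the 6 arrays, while the other myosin heavy chains Myh2, Myh4 and Myh7 were dim on all 6. The overlap of the sums therefore describes mainly this 1 gene, and the muscle content of the samples was not tested. Single markers went both ways. Myoglobin (Mb) read 8.44, 8.30 and 8.31 in peri-implant tissue and was dim on all 3 mucosal arrays; it passed the filter only through the group in which it is high, and with values below 5.90 raised to that level it was higher by 2.45. Acta1, skeletal muscle actin, was dim on all 3 peri-implant arrays and read 6.90, 6.97 and 6.93 in mucosa, a difference of -1.04 on the same basis, and was not tested. Actn3, Myh2 and Ryr1 were also lower in each peri-implant sample than in any mucosal one, at or near dim signals throughout.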

How the data were processed

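Biotin-labelled RNA from 6 samples, prepared with an Affymetrix 3′ IVT kit per the labels' protocols, was hybridised to 1 array each. The deposited table holds 31099 probe sets, 57 of them controls, as log2 signals that the authors scaled per array: the linear mean with 2% trimmed at each end is 500.2 on every array. Software, background correction and build: not given in the sources used here. Probe sets at exactly 0 numbered 150 to 382 per array. The number of arrays limits the precision.

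Values were used as deposited. Probe sets whose mean over 6 arrays exceeded 5.68, the 40th percentile without controls, were tested, 18625 in all, with limma 3.58.1 in R 4.3.3 (two-sided lmFit and trended eBayes, Benjamini-Hochberg adjustment across the tested probe sets, threshold 0.05). Every adjusted p printed comes from this fit unless an alternative is named. The dim level of 5.90 is the 40th percentile of all single values. An exact permutation of 3 against 3 samples cannot give p below 0.10 and was not used.

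Symbols came from the array's annotation table: 20826 probe sets had 1 symbol, 436 several and 9780 none. Another 6 probe sets fitted the name rule but carried several symbols and were left out. All 86 member symbols matched a GRCr8 gene. Promoter windows were those of RefSeq, with 78 members matched. The 17 gene lists held 278 entries, of which 240 matched.

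Members, lists and tests were chosen with earlier results of these data known. Named with values were all called members, a set of core and isoform genes, and up to 4 genes with the smallest p per mitochondrial list. Further members, Sdhaf2, Ppargc1a, Gabpa, Nrf1 and the single cell type markers were picked with their values in view. Differences are peri-implant minus mucosa. Fits were tested on simulated data. There were 17 alternatives: filters, scaling, variance trend, dim values, probe set choice, replicate block and leaving out each array. Assignment to complexes by name alone was added after the data had been seen. Deviations of same-numbered samples correlated at 0.013, -0.079 and 0.027, and those of differently numbered samples of the 2 tissues at -0.063 to 0.050. These values showed no pairing by number, but with 3 samples a group they cannot settle whether samples shared a rat.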

Additional observations from a re-analysis of the deposited data

How the results depend on the processing

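Of the 13 members called, Ndufa4l2, Sdha and Sdhb were called under all 17 alternatives, the other 10 were not. Without the variance trend 3 members were called (2 higher, 1 lower), with 1816 of all genes; the count of higher calls was then 0 for complex I, 2 for complex II, 0 for complex III and 0 for complex V, and of lower calls 0 for complexes I and V. Median centring of the arrays left 8 members (5 higher), with 2 higher in complex I, 2 in complex II and 0 in complex III. Quantile normalization gave 29 (25 higher) and a member median of 0.12, with 2 higher in complex III, 5 in complex IV and 7 in complex V; the array means of complexes I, III, IV and V then differed by 0.11, 0.092, 0.12 and 0.14. The filter at the 60th percentile gave 1 higher call in complex IV and 2 in complex V, and a robust trend 2 in complex V. With no filter the complex IV mean difference was -0.056, the 6 dim isoforms being included. With the mean of a gene's probe sets, or its dimmest tested probe set, complex V had 0 lower calls; with the dimmest probe set Atp5if1 was at 0.063, Ndufv3 at -0.13 and the complex II mean difference at 0.29. Assigning members by name alone put Ndufa4 and Ndufa4l2 in complex I, with 2 lower calls and a mean difference of 0.017, and took complex IV to -0.015. Leaving out single arrays gave 11 to 17 members called, 1 to 2 lower calls in complex I and 1 to 3 higher calls in complex V.

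The replicate numbers showed no pairing in the values, which does not settle whether samples shared a rat. With the replicate block 3 complex V genes were called higher and 17.5% of the members were called, against 25.5% of all genes. The cause of the changes with scaling and with the variance trend was not tested. With 3 arrays a group, and a median SE of 0.078 for members, differences near 0.22 such as those of Sdhc and Ndufs7 sit at the limit of what was called.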
